A study of Rattus norvegicus with 10 samples.

Results

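Axon guidance genes encode the secreted and membrane-bound cues that steer growing axons, and the receptors that read them. The 67 genes described here were chosen by gene symbol alone: class 3 to class 7 semaphorins, ephrins, Slits, netrins and netrin-G proteins as ligands, and plexins, neuropilins, Eph, Robo and Unc5 receptors. They were 67 of the 16041 gene rows in the table, 36 ligands and 31 receptors. The rule used no measured value, but this set of genes was chosen with earlier results of these data known. RNA had been sequenced from prefrontal cortex of male Sprague-Dawley rats at postnatal day 91, in 5 control tissue samples and 5 samples of rats exposed to early life stress (ELS). The stress was a limited nesting procedure from postnatal day 2 to 9, so the tissue was taken long after it had ended. No drug, transgene or deletion was named for either group. The labels do not say whether rats of a group came from separate litters, so each p-value measures only the spread between these tissue samples. The values are RPKM, read counts scaled to the length of the gene model and the size of the library, so levels may be set side by side between genes. Of the 67 genes, 66 passed a filter of at least 0.5 RPKM in 5 or more libraries and were tested. The remaining gene, the Eph receptor Epha2, lay between 0.241 and 0.571 RPKM.

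As background, the same molecules that guide axons in the embryo are kept in the adult cortex, where they act at dendritic spines, synapses, myelin and blood vessels. Semaphorins bind plexins, with neuropilins as co-receptors for most class 3 members. Ephrins bind Eph receptor tyrosine kinases and can signal into the cell that carries them. Slits bind Robo receptors, and netrins bind Dcc, which mediates attraction, or Unc5 proteins, which mediate repulsion. Netrin-G proteins are tethered to the membrane and bind the leucine-rich repeat proteins Lrrc4c and Lrrc4 in place of Dcc and Unc5.

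Control replicate 4 stood apart in these genes more often than in genes as a whole. It was the highest or the lowest of the 10 libraries in 50 of the 66 tested guidance genes (75.8%), against 47.7% of all 14642 genes tested. It lay at least 1.5-fold off the median of the other 4 controls in 28 of 66 (42.4%, 18 higher and 10 lower), against 17.6% of all genes. Among the largest departures, Epha8 was 13.6 times and Nrp1 4.10 times that median, while Sema3a was 0.0633 times and Efna5 0.183 times it. The same library had the highest summed level of 7 mature oligodendrocyte markers, 2270 RPKM against 1103 to 1416 in the other controls, and the choroid plexus gene Ttr at 31.1 RPKM against at most 1.96 elsewhere. ELS replicate 2 was the highest or lowest library in only 4 of the 66 (6.06%), against 13.5% of all genes. For some genes, Unc5d among them, it lay with the controls, away from the other 4 ELS libraries. Leaving it out was chosen with earlier results of these data known. A gene that passes only without it therefore gains no separate support from that fit. Values without one or both of these libraries are therefore set beside many of the results below.

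**Figure D1:**
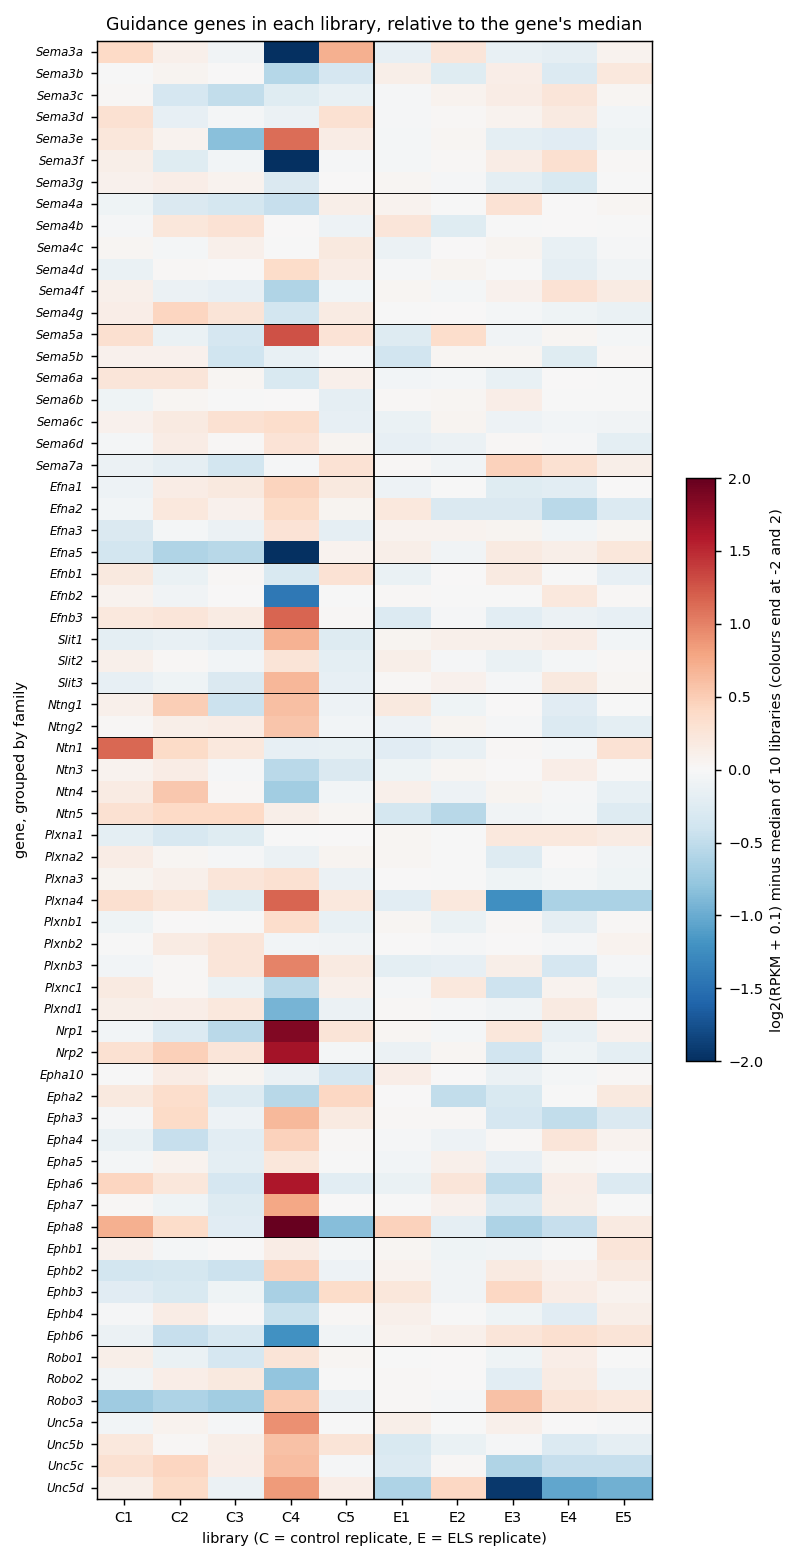
Each row is a guidance gene and each column a library (5 control, 5 ELS); colour is log2(RPKM + 0.1) minus the gene's median over the 10 libraries. The column of control replicate 4 holds the highest or lowest value in 50 of the 66 tested genes.

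The tissue label was checked against marker genes. Neuronal markers summed to between 1366 and 1833 RPKM in every library, and 5 of 6 had a higher mean RPKM in ELS, all but Gad1 (summed, controls 1366 to 1541, ELS 1608 to 1833). All 7 mature oligodendrocyte markers had a lower mean in ELS (833 to 1085 RPKM summed, against 1103 to 2270), as did all 4 precursor, all 5 astrocyte and all 5 microglial markers. Precursor markers summed to 31.6 to 35.7 RPKM in ELS and 38.2 to 44.6 in controls, and astrocyte markers to 335 to 378 against 389 to 586. Microglial sums overlapped, at 70.4 to 84.1 against 77.8 to 93.5 RPKM, as did those of meninges and smooth muscle. Markers of neighbouring tissue varied most among controls: striatal markers summed to 103.8 RPKM in control replicate 1 and at most 53.5 in ELS, and olfactory bulb and neuroblast markers to 4.15 to 14.2 against 3.65 to 6.62. Blood cell markers summed to 411.5 to 981 RPKM in controls and 214 to 438 in ELS. No marker row was at 0 in every library. Since these were bulk samples, fewer cells of a type and less RNA per cell cannot be told apart in any value below, and the part that these marker differences have in the guidance genes was not tested.

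All families were present in the adult cortex. Averaged over the 10 libraries, 20 genes reached 10 RPKM, 10 ligands and 10 receptors, and 8 genes lay under 2 RPKM. The median gene mean was 5.01 RPKM over ligands and 7.05 over receptors. The most abundant was Sema7a, a membrane-anchored semaphorin whose receptors are plexin C1 and integrins, at 55.5 RPKM. Ephb6, an Eph receptor whose kinase domain is inactive, followed at 39.7 RPKM. Epha4, a receptor for both ephrin types, had 35.5 RPKM, Unc5a 33.1 and Slit1 29.4. In controls 1 SD between libraries was 8.56 RPKM for Epha4, 11.9 for Unc5a and 9.51 for Slit1. Slit1 was nevertheless the lowest of these 3 in every control library, though barely below Epha4 in control replicate 2 (25.70 and 25.73 RPKM). Epha4 and Unc5a changed places between controls. In ELS the means were Epha4 36.5 ± 3.34, Unc5a 30.9 ± 1.37 and Slit1 29.8 ± 1.53 RPKM (SD, n = 5). Epha4 was the highest of the 3 in every ELS library, while Unc5a and Slit1 changed places. The lowest tested genes were Ephb4, a receptor best known from veins, at 1.25 RPKM and Ntn5 at 0.497.

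**Figure D2:**
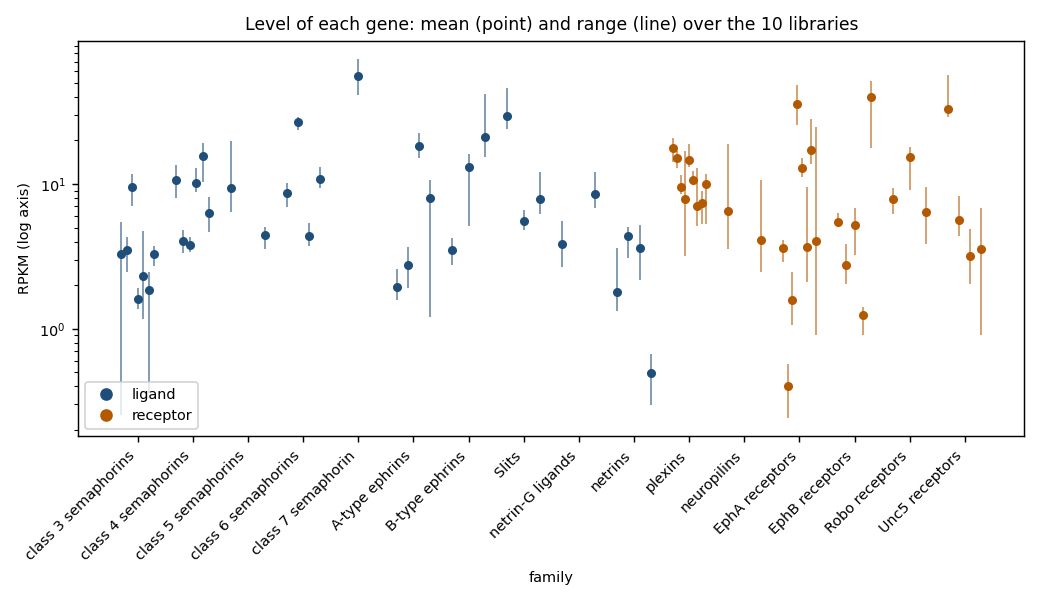
Mean RPKM (points) and range over the 10 libraries (lines) of each gene by family, on a log axis, ligands in blue and receptors in orange. Sema7a (55.5 RPKM) and Ephb6 (39.7) top the ligands and receptors, and long lines as for Epha8 mark genes in which control replicate 4 departed.

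None of the 66 genes differed between ELS and control at an adjusted p under 0.05 (limma, Benjamini-Hochberg over all 14642 genes). The background was the same, with 0% of all genes called, and limma-voom on recovered reads without weights also called 0 guidance genes (0% of all genes). At an unadjusted p under 0.05, 6 guidance genes had a higher mean in ELS, where 10.1% of all genes did, and 12 had a lower mean, where 10.3% of all genes did. On the log2 scale of the fit, 26 of the 66 had a higher and 40 a lower mean, and the median log2 fold change was -0.04, beside 0.00 over all genes tested. Ligands and receptors gave similar counts: 3 of 36 ligands and 3 of 30 receptors were higher at an unadjusted p under 0.05, and 6 of each were lower. Their median log2 fold changes were -0.04 and -0.06. The 5 ELS libraries all lay above the 5 controls for 1 gene, Ephb6 (background 3.08%), and all below them for 3, Efnb3, Ntn5 and Unc5b (background 2.6%).

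These counts moved with single libraries. When control replicate 4 was left out, 0 genes passed the adjusted threshold (0% of all genes), but 12 had a higher mean at an unadjusted p under 0.05 (11.1% of all genes) and the direction of 12 genes changed. With ELS replicate 2 left out, the Unc5 receptors Unc5c and Unc5d passed, both lower in ELS, when 3.03% of all genes passed and 2.1% were lower. With both libraries left out 11 genes passed, against 7.62% of all genes. Among them Slit1, Plxna1, Ephb2, Ephb6, Robo3 and Efna5 were higher in ELS (3.5% of all genes), and Unc5b, Unc5c, Unc5d, Efnb3 and Sema4g lower (4.12%). In that fit 12 genes had a higher mean at an unadjusted p under 0.05 (13.9% of all genes). Weighting each library by its estimated quality, in limma-voom on reads recovered from the RPKM steps, passed 8 of these 11, all but Slit1, Efna5 and Unc5d, when 5.86% of all genes passed, and 12 had a higher mean at an unadjusted p under 0.05 (10.7%). That fit gave control replicate 4 a weight of 0.169.

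Separation of the groups moved in the same way. Leaving out control replicate 4, the ELS libraries lay above every control for 5 genes (Ephb2, Ephb6, Robo3, Slit1 and Slit3, background 4.22%) and below for 5 (Efnb3, Ntn5, Sema4g, Sema6a and Unc5b, background 3.57%). Leaving out ELS replicate 2, it was 3 above (Efna5, Ephb6 and Plxna1, background 7.32%) and 6 below (Efnb3, Nrp2, Ntn5, Unc5b, Unc5c and Unc5d, background 6.56%). Leaving out both, it was 7 above (background 9.77%) and 8 below (background 8.4%). Ephb6 was above, and Efnb3, Ntn5 and Unc5b below, in each of these 4 choices of libraries.

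**Figure D3:**
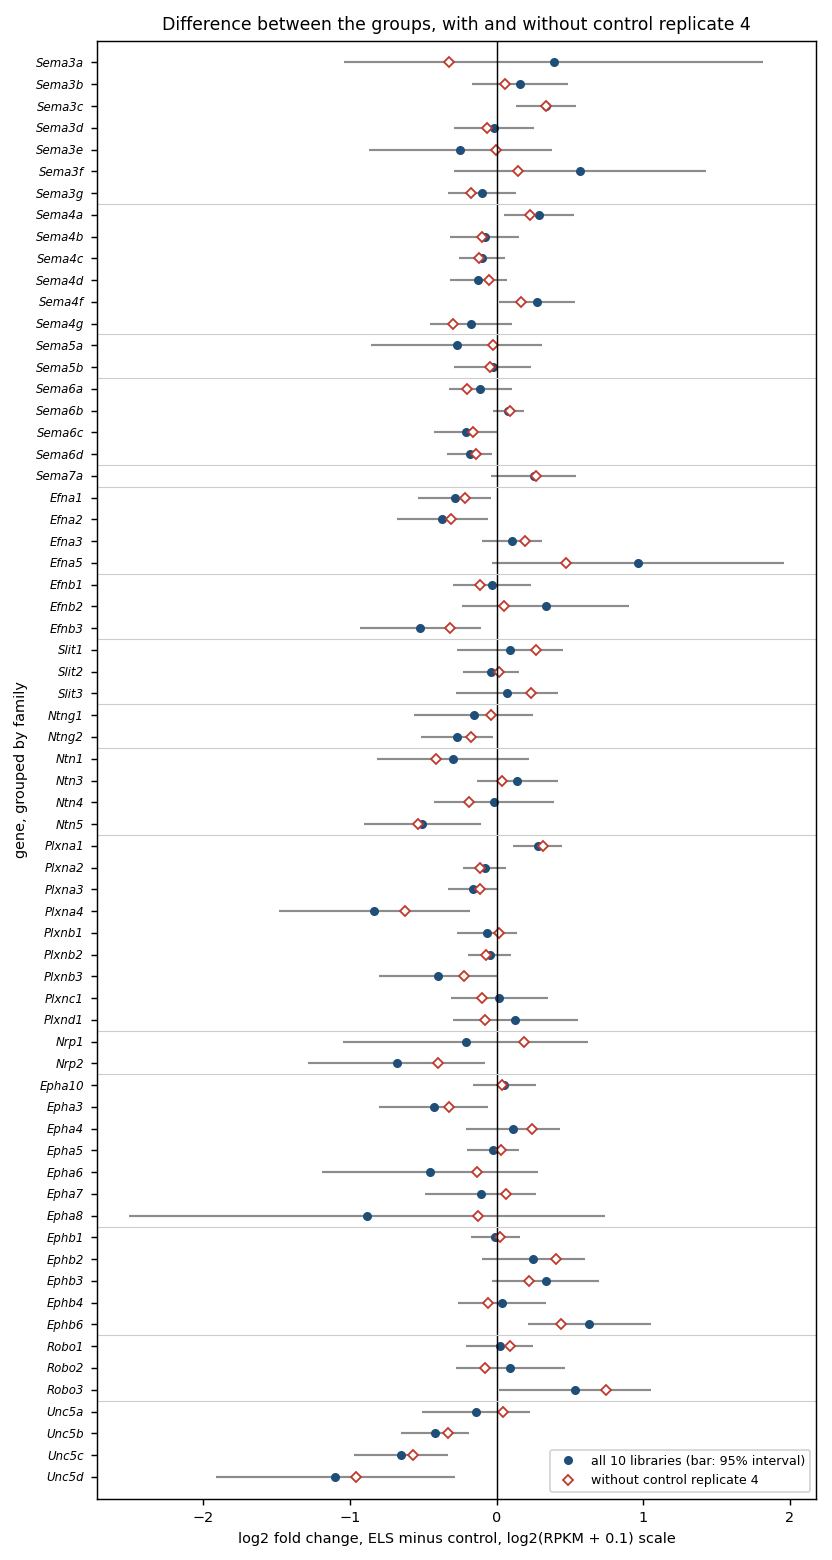
Log2 fold change of each tested gene, ELS minus control on the log2(RPKM + 0.1) scale, with its 95% interval from all 10 libraries (circles and bars) and the estimate without control replicate 4 (diamonds). Unc5d has the lowest estimate, -1.10, and the widest gaps between circle and diamond are in genes such as Epha8, Sema3a and Efna5.

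The netrin receptors of the Unc5 family held 3 of the 12 genes lower at an unadjusted p under 0.05 (10.3% of all genes). Unc5a, the most abundant of the 4, had a log2 fold change near 0 once control replicate 4 was left out, while Unc5b, Unc5c and Unc5d had lower ELS means. The 250 bases before the start of Unc5a and Unc5b are shown because the groups did not overlap for Unc5b and overlapped for its more abundant relative Unc5a. That of Ephb6 is shown as the only gene with every ELS library above every control. No RefSeq promoter was matched by symbol to Unc5c or Unc5d, so theirs could not be shown. The sequences are from RefSeq, build GRCr8, read 5′ to 3′ on the gene's strand: Unc5a at chr17:9675664-9675913 (minus), Unc5b at chr20:29307271-29307520 (minus) and Ephb6 at chr4:71458382-71458631 (plus). Capitals mark the motifs searched on both strands: the GC box GGGCGG, the E-box CACGTG and the core of the glucocorticoid response element, AGAACA.
Unc5a: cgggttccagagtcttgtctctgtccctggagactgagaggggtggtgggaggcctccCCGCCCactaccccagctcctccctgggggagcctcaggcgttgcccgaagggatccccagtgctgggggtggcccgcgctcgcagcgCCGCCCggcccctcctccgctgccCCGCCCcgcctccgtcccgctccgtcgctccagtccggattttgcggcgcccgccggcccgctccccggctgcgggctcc
Unc5b: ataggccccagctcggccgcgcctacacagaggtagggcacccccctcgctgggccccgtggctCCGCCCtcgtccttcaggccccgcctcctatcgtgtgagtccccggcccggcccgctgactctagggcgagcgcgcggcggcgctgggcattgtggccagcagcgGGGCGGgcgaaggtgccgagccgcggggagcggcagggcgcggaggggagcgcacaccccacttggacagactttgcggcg
Ephb6: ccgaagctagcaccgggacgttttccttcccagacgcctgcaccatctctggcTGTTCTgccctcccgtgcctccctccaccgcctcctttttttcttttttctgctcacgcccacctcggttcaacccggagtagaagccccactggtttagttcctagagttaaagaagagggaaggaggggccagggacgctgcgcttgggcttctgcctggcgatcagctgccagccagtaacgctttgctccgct
The Unc5a window held 3 GC boxes and the Unc5b window 2, with no other match, and 75.6% and 75.2% of their bases were G or C. The Ephb6 window held no GC box and 1 AGAACA match, and was 59.2% G or C. GC boxes occurred in 30.5% of all 33469 RefSeq promoter windows, CACGTG in 5.59% and AGAACA in 17.5%. Of the 67 guidance genes, 52 were matched to a window; 29 of these held a GC box, 4 CACGTG and 2 AGAACA. The median G or C content was 64.0% over the matched genes and 51.2% over all windows. These matches describe the letters only.

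Unc5b (ENSRNOG00000000567), a netrin receptor also known from blood vessel branching, was at 6.30, 5.48, 5.88, 8.20 and 6.46 RPKM in control replicates 1 to 5. In ELS replicates 1 to 5 it was at 4.35, 4.91, 5.32, 4.47 and 4.78 RPKM. Every ELS library lay below every control, and control replicate 4 was the highest. The means were 6.46 ± 1.04 and 4.77 ± 0.386 RPKM (SD, n = 5 each), a log2 fold change of -0.42 ± 0.10 (SE, 95% interval -0.65 to -0.19, limma adjusted p = 0.133). Without control replicate 4 the log2 fold change was -0.33. Of 6 endothelial and pericyte markers listed, 4 had a row. They summed to 17.0 to 22.9 RPKM in controls, or 20.6 to 22.9 without control replicate 4, and to 18.7 to 21.3 in ELS, so the sums overlapped either way. On the log2 scale of the fit all 4 had a lower mean in ELS. Their part in the Unc5b values was not tested. Over the 20 alternative settings the limma adjusted p of Unc5b ranged from 0.0299 to 0.294.

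Unc5c (ENSRNOG00000029071), which in development steers axons away from netrin, was at 3.90, 4.23, 3.46, 4.87 and 3.09 RPKM in the controls. In ELS it was at 2.58, 3.16, 2.03, 2.24 and 2.26 RPKM. Only ELS replicate 2, at 3.16, reached into the control range, just above control replicate 5. The means were 3.91 ± 0.689 and 2.45 ± 0.442 RPKM, a log2 fold change of -0.65 ± 0.14 (limma adjusted p = 0.133, 0.0163 to 0.294 over the 20 alternatives). Without ELS replicate 2 the log2 fold change was -0.74 (limma adjusted p = 0.0288).

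Unc5d (ENSRNOG00000011858), best known for binding the adhesion protein Flrt2, was at 4.09, 4.92, 3.42, 6.80 and 4.09 RPKM in the controls. In ELS it was at 2.40, 5.01, 0.907, 1.77 and 1.87 RPKM. ELS replicate 2 was higher than 4 of the controls, and the other 4 ELS libraries lay below all of them. The means were 4.67 ± 1.31 and 2.39 ± 1.56 RPKM and the log2 fold change -1.10 ± 0.37, the lowest of the 66 genes (limma adjusted p = 0.161, 0.0236 to 0.316 over the alternatives). Without ELS replicate 2 it was -1.41 (limma adjusted p = 0.0333). Dcc, the attractive netrin receptor and not one of the 67, had the same layout: 1.81 to 5.03 RPKM in controls, 2.68 in ELS replicate 2 and 0.691 to 1.43 in the other ELS libraries. Its log2 fold change was -0.99 ± 0.34, or -1.23 without ELS replicate 2 (limma adjusted p = 0.167 and 0.0585, 0.0279 to 0.323 over the alternatives).

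Unc5a (ENSRNOG00000059840) was at 29.0, 31.6, 29.5, 56.5 and 29.9 RPKM across the controls, against 32.5, 30.0, 32.3, 30.1 and 29.7 in ELS. Apart from control replicate 4, all 9 libraries lay between 29.0 and 32.5 RPKM. The log2 fold change was -0.14 ± 0.17 with that library (limma adjusted p = 0.661) and 0.04 without it. The median log2 fold change of the 4 Unc5 genes was -0.54, or -0.45 without control replicate 4. Because Unc5a made up most of the family's reads per length, the summed Unc5 level ranged from 38.6 to 43.1 RPKM in ELS and from 42.3 to 46.3 in the controls other than replicate 4, which overlap.

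On the ligand side, none of the 4 netrins, nor either of the netrin-G genes, passed. Ntn5 (ENSRNOG00000021016), a little-studied netrin, was at 0.619, 0.670, 0.674, 0.536 and 0.5004 RPKM in the control libraries, against 0.359, 0.299, 0.455, 0.469 and 0.390 in ELS. The groups did not overlap, but the gene rested on 8 to 21 reads a library. Its log2 fold change was -0.51 ± 0.18 (limma adjusted p = 0.173), and it overlaps Sec1 in RefSeq. Ntn1, the founding netrin, was at 3.59 RPKM in control replicate 1 and at 1.32 to 2.05 in the other 9 libraries, with a log2 fold change of -0.30 ± 0.23 (limma adjusted p = 0.488). Ntn3 had means of 4.20 ± 0.817 and 4.58 ± 0.254 RPKM in control and ELS, and Ntn4, a basement membrane netrin, 3.69 ± 1.10 and 3.52 ± 0.251.

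Of the netrin-G ligands, Ntng2 was at 8.40, 8.99, 9.21, 12.2 and 7.99 RPKM in controls and 7.68, 8.62, 8.13, 6.79 and 7.17 in ELS, with a log2 fold change of -0.27 ± 0.11 (limma adjusted p = 0.213), or -0.17 without control replicate 4. The groups overlapped between 7.99 and 8.62 RPKM. Ntng1 had means of 4.11 ± 1.21 and 3.57 ± 0.398 RPKM. Their postsynaptic partners had higher ELS means: Lrrc4c, which binds Ntng1, 22.2 ± 4.29 and 27.2 ± 2.76 RPKM (log2 fold change 0.31 ± 0.14, limma adjusted p = 0.245, and 0.17 without control replicate 4), and Lrrc4, which binds Ntng2, 19.9 ± 1.71 and 22.3 ± 1.98 (0.16 ± 0.08, limma adjusted p = 0.265).

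**Figure D4:**
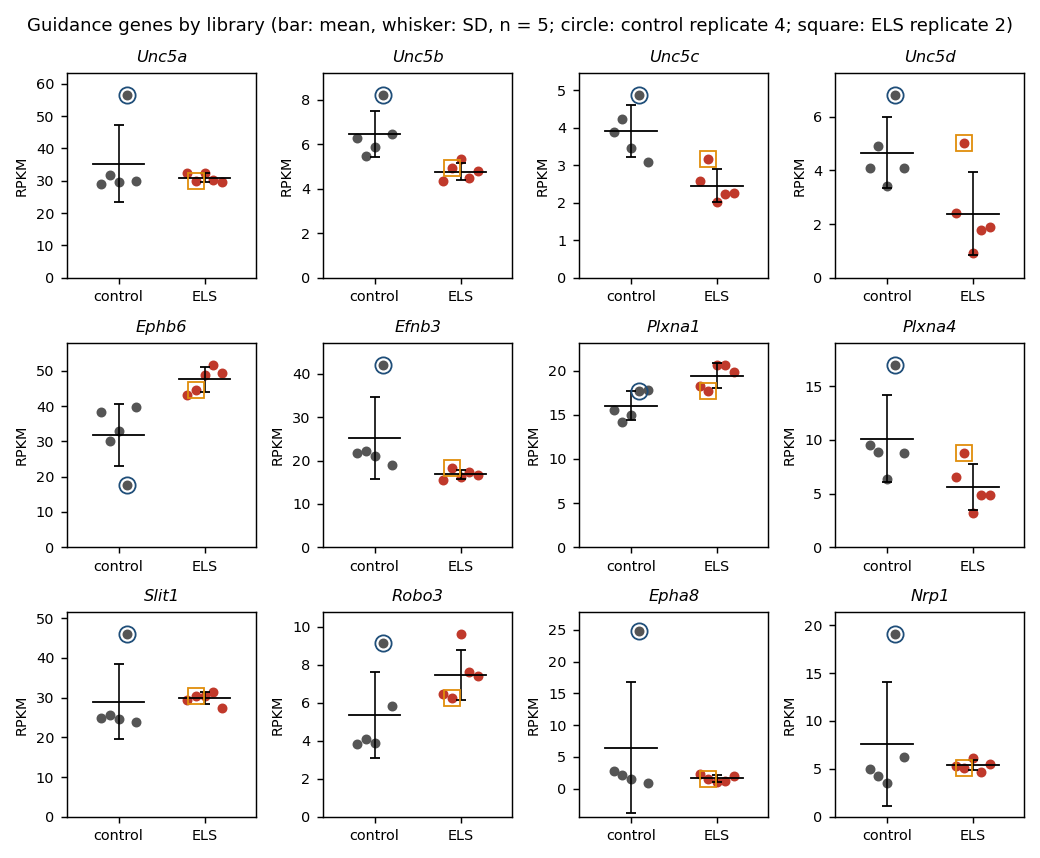
RPKM of 12 guidance genes in each library, with the group mean (bar) and SD (whisker, n = 5); control replicate 4 is circled and ELS replicate 2 boxed. Every ELS point of Unc5b and Efnb3 is below, and every ELS point of Ephb6 above, all control points, while in Epha8 and Nrp1 the circled point lies far above all others.

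Among Eph receptors, Ephb6 (ENSRNOG00000014367) was the gene whose groups did not overlap. It was at 38.3, 30.1, 33.1, 17.8 and 39.7 RPKM across the controls, against 43.3, 44.6, 48.9, 51.8 and 49.5 in ELS. All ELS libraries were above all controls, and control replicate 4 was the lowest. The means were 31.8 ± 8.74 and 47.6 ± 3.54 RPKM, a log2 fold change of 0.63 ± 0.19 (SE, 95% interval 0.21 to 1.05, limma adjusted p = 0.138, 0.0234 to 0.303 over the alternatives). Leaving out control replicate 4, the control mean was 35.3 ± 4.499 and the log2 fold change 0.44. The promoter window printed above for Ephb6 is that of this gene.

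Of the other EphB receptors, all of which have active kinases, Ephb2 regulates synapse formation and NMDA receptors. It was at 2.11, 2.14, 2.04, 3.83 and 2.56 RPKM in the control libraries, against 2.90, 2.63, 3.15, 2.95 and 3.15 in ELS. Control replicate 4 was the highest of all and the other controls lay below every ELS library. Its log2 fold change was 0.25 ± 0.16 with that library and 0.40 without it (limma adjusted p = 0.397 and 0.0893, 0.0279 to 0.553 over the alternatives). Ephb3 had means of 4.66 ± 1.25 and 5.78 ± 0.736 RPKM (log2 fold change 0.33 ± 0.17, limma adjusted p = 0.279, and 0.22 without that library). Ephb1 and Ephb4 had log2 fold changes of -0.01 and 0.04, which turned to 0.02 and -0.06 without it.

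The 8 EphA receptors had a median log2 fold change of -0.11 over the 7 tested, and 0.03 without control replicate 4. Epha3, an ephrin-A receptor, had means of 1.83 ± 0.417 and 1.32 ± 0.227 RPKM, a log2 fold change of -0.43 ± 0.17 (limma adjusted p = 0.194), the only EphA gene at an unadjusted p under 0.05. Epha8 was at 24.8 RPKM in control replicate 4 and between 0.8998 and 2.83 in the other 9 libraries, so its log2 fold change moved from -0.88 ± 0.73 to -0.13 when that library was left out. Epha4, the most abundant EphA, was at 48.4 RPKM in that library and at 25.7 to 41.8 in the others, with means of 34.5 ± 8.56 and 36.5 ± 3.34 RPKM. Epha6 and Epha7 were likewise highest in control replicate 4, at 9.56 and 28.2 RPKM, against at most 4.14 and 17.8 elsewhere, and their log2 fold changes moved from -0.45 and -0.11 to -0.14 and 0.06 without it. Epha5 had nearly equal means of 13.0 ± 1.42 and 12.7 ± 0.905 RPKM (log2 fold change -0.03, 95% interval -0.20 to 0.15, and 0.03 without control replicate 4), as did Epha10, which like Ephb6 has an inactive kinase, with 3.56 ± 0.457 and 3.68 ± 0.235 RPKM.

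Among the ephrins, Efnb3 (ENSRNOG00000010320), a membrane-spanning ligand that in development keeps axons from crossing the midline, was at 21.6, 22.2, 21.0, 42.1 and 19.1 RPKM in controls. In ELS it was at 15.4, 18.4, 16.2, 17.3 and 16.8 RPKM. All ELS libraries lay below all controls, the nearest pair being 18.4 and 19.1. The means were 25.2 ± 9.52 and 16.8 ± 1.11 RPKM and the log2 fold change -0.52 ± 0.19 (SE, limma adjusted p = 0.173, 0.0146 to 0.316 over the alternatives). With that control left out, the control mean was 21.0 ± 1.38 RPKM and the log2 fold change -0.32. The library highest in Efnb3 was also highest in mature oligodendrocyte markers (2270 RPKM summed), whose ELS sums lay below the control sums too; their part in this result was not tested.

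Efna5, an ephrin that patterns cortical maps, was at 7.05, 5.99, 6.21, 1.21 and 9.62 RPKM across the controls, against 9.88, 8.69, 10.3, 9.94 and 10.7 in ELS. Control replicate 4 was far below the rest, and 1 of the 5 ELS libraries lay below control replicate 5. The log2 fold change was 0.96 ± 0.45 with that library and 0.47 without it (limma adjusted p = 0.257 and 0.104, 0.0474 to 0.396 over the alternatives). Its gene model was the shortest of the 67, 666 bases, and carried 18 to 141 reads. Efna1 and Efna2 had lower ELS means, 2.16 ± 0.301 against 1.75 ± 0.144 RPKM and 3.12 ± 0.380 against 2.42 ± 0.519, with log2 fold changes of -0.28 ± 0.11 and -0.37 ± 0.14 (limma adjusted p = 0.199 and 0.184). Efna3, the most abundant of the A type, had 17.8 ± 2.81 and 18.9 ± 0.700 RPKM.

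Of the other B-type ephrins, Efnb2, which marks arteries and also acts at synapses, was at 5.09 RPKM in control replicate 4 and at 13.1 to 16.1 in the other 9 libraries. Its log2 fold change was 0.33 ± 0.26 with that library and 0.05 without it. Efnb1 had means of 3.53 ± 0.600 and 3.43 ± 0.340 RPKM. In control replicate 4, then, Efnb3 was the highest and Efnb2 the lowest of 10, so the members of one ligand class departed in opposite directions.

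Of the 20 semaphorins, 3 were higher and 1 lower at an unadjusted p under 0.05, where 10.1% and 10.3% of all genes were. Sema3c (ENSRNOG00000006526), a secreted semaphorin that attracts cortical axons in development, was at 10.04, 7.84, 7.005, 8.35 and 8.90 RPKM in the control libraries, against 9.80, 10.4, 10.97, 11.8 and 10.2 in ELS. Only control replicate 1 reached into the ELS range. The means were 8.43 ± 1.14 and 10.6 ± 0.779 RPKM, and the log2 fold change of 0.34 ± 0.09 was the same to 2 decimals without control replicate 4 (limma adjusted p = 0.133 and 0.114, 0.0812 to 0.294 over the alternatives). Sema3c was the only ligand among the 5 guidance genes of lowest p, with Unc5c, Unc5b, Plxna1 and Ephb6.

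The other class 3 members differed in direction among themselves, and several turned on control replicate 4. Sema3a, the prototype repellent of cortical axons, was at 4.38, 3.56, 3.15, 0.251 and 5.45 RPKM across the controls, against 2.92, 3.93, 2.98, 2.91 and 3.45 in ELS. Control replicate 4 was the lowest library by a wide gap, and the log2 fold change moved from 0.39 ± 0.64 to -0.32 without it. Sema3f, which acts through neuropilin-2 on dendritic spines, was at 0.360 RPKM in that library and at 1.65 to 2.49 in the others, with a log2 fold change of 0.57 ± 0.39 with it and 0.14 without it. Sema3e, the ligand of plexin D1, went the other way, with 4.76 RPKM in control replicate 4 and 1.16 to 2.53 elsewhere, and its log2 fold change moved from -0.25 to -0.01. Sema3b, Sema3d and Sema3g had log2 fold changes of 0.16, -0.02 and -0.10, or 0.06, -0.06 and -0.17 without control replicate 4. With all libraries 4 of the 7 had a higher log2 mean in ELS, and without that library 3 did. The class 3 median was 0.16 with all libraries and -0.01 without control replicate 4.

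Among membrane semaphorins, Sema4a and Sema4f had higher ELS means at an unadjusted p under 0.05. Sema4a was at 8.02 to 12.1 RPKM in controls, with a mean of 9.65 ± 1.62, and at 11.03 to 13.5 in ELS, with a mean of 11.7 ± 1.03 (log2 fold change 0.29 ± 0.11, limma adjusted p = 0.183). Sema4f had 14.2 ± 2.41 and 17.1 ± 1.49 RPKM (log2 fold change 0.27 ± 0.12, limma adjusted p = 0.227, and 0.16 without control replicate 4). In both, the groups overlapped and control replicate 4 was the lowest library. Sema4g showed the reverse: 6.71, 8.19, 7.32, 4.67 and 6.81 RPKM in controls and 6.05, 6.11, 5.92, 5.71 and 5.55 in ELS. Without control replicate 4 its groups did not overlap and the log2 fold change was -0.30, beside -0.17 ± 0.13 with it (limma adjusted p = 0.0876 and 0.453, 0.0376 to 0.673 over the alternatives). Sema4d, a ligand of plexin B1 that oligodendrocytes also make, had 10.6 ± 1.44 and 9.65 ± 0.584 RPKM (log2 fold change -0.13, limma adjusted p = 0.439, and -0.05 without control replicate 4).

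In class 6, whose members bind A-type plexins, Sema6d had means of 11.5 ± 1.02 and 10.1 ± 0.645 RPKM, a log2 fold change of -0.18 ± 0.07 (limma adjusted p = 0.184). Sema6a was at 6.99 to 10.2 RPKM in controls and 7.80 to 8.70 in ELS, and without control replicate 4, the lowest, its groups did not overlap (log2 fold change -0.20, beside -0.11 with it). Sema6b was among the steadiest of the abundant genes, at 23.7 to 29.2 RPKM, and Sema6c had 4.71 ± 0.653 and 4.02 ± 0.210 RPKM. Sema7a, the most abundant guidance gene, had means of 50.8 ± 8.83 and 60.3 ± 9.18 RPKM, and its log2 fold change of 0.25 ± 0.13 did not pass (limma adjusted p = 0.299). In class 5, Sema5a was at 19.8 RPKM in control replicate 4 and at 6.38 to 10.4 elsewhere (log2 fold change -0.27 with it and -0.02 without it), and Sema5b had 4.49 ± 0.607 and 4.40 ± 0.590 RPKM.

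Among semaphorin receptors, Plxna1 (ENSRNOG00000017003), the signalling partner of neuropilin-1 for class 3 semaphorins, was at 15.5, 14.2, 14.9, 17.7 and 17.8 RPKM in controls. In ELS it was at 18.2, 17.8, 20.7, 20.7 and 19.9 RPKM. The groups met at 17.8, where control replicate 5 lay just above ELS replicate 2. The means were 16.0 ± 1.63 and 19.4 ± 1.37 RPKM and the log2 fold change 0.28 ± 0.08 (SE, 95% interval 0.11 to 0.45, limma adjusted p = 0.133, 0.0259 to 0.294 over the alternatives). Without control replicate 4 it was 0.32.

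Plxna4, which serves class 3 and class 6 semaphorins, differed the other way. It was at 9.48, 8.87, 6.397, 17.0 and 8.77 RPKM in the control libraries, against 6.52, 8.81, 3.17, 4.86 and 4.84 in ELS. Control replicate 4 was the highest, and ELS replicate 2 lay among the controls. The means were 10.1 ± 4.03 and 5.64 ± 2.13 RPKM and the log2 fold change -0.83 ± 0.29, or -0.63 without control replicate 4 and -1.01 without ELS replicate 2 (limma adjusted p = 0.170, 0.207 and 0.0815, 0.0501 to 0.326 over the alternatives). Of the other A-type plexins, Plxna2 had 15.6 ± 1.03 and 14.8 ± 1.16 RPKM and Plxna3 10.2 ± 1.18 and 9.04 ± 0.291, neither past the threshold.

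The remaining plexins had smaller differences. Plxnb3, a receptor of Sema5a made largely by oligodendrocytes, was at 12.9 RPKM in control replicate 4, which also had the highest oligodendrocyte marker sum, at 6.2 to 7.66 in the other controls and at 5.09 to 7.01 in ELS (log2 fold change -0.40 ± 0.18, limma adjusted p = 0.250, and -0.22 without that library). The part of the oligodendrocyte markers in that value was not tested. Plxnb1 and Plxnb2 had log2 fold changes of -0.07 and -0.05, Plxnc1 of 0.02 and Plxnd1 of 0.13. With control replicate 4 left out these were 0.02, -0.08, -0.10 and -0.08, so Plxnb1, Plxnc1 and Plxnd1 changed sign. The neuropilins both peaked in control replicate 4. Nrp1 was at 19.1 RPKM there and at 3.56 to 6.24 in the other 9 libraries, and its log2 fold change was -0.21 with that library and 0.19 without it. Nrp2 was at 4.05, 4.59, 3.89, 10.6 and 3.18 RPKM across the controls, against 3.003, 3.35, 2.47, 3.07 and 2.83 in ELS, with only ELS replicate 2 above the lowest control. Its log2 fold change was -0.68 ± 0.27, or -0.40 without control replicate 4 (limma adjusted p = 0.203 and 0.115, 0.0555 to 0.358 over the alternatives).

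For the Slit ligands the difference between groups turned on control replicate 4. Slit1 (ENSRNOG00000026065), the most brain-restricted Slit, was at 24.9, 25.7, 24.6, 46.0 and 23.8 RPKM in the control libraries, against 29.4, 30.5, 30.3, 31.5 and 27.4 in ELS. The ELS libraries lay above 4 of the controls and below the remaining one. With all libraries the means were 29.0 ± 9.51 and 29.8 ± 1.53 RPKM and the log2 fold change 0.09 ± 0.16. Without control replicate 4 the control mean was 24.8 ± 0.769 and the log2 fold change 0.27 ± 0.05 (limma adjusted p = 0.783 and 0.0759, 0.0202 to 0.933 over the alternatives). Slit3 had the same layout, with 12.02 RPKM in control replicate 4, 6.18 to 7.08 in the other controls and 7.47 to 8.65 in ELS, and its log2 fold change moved from 0.07 to 0.24. Slit2 did not, with 5.66 ± 0.682 and 5.48 ± 0.361 RPKM.

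Of the Robo receptors, Robo3 (ENSRNOG00000030016), known from the crossing of commissural axons, was at 3.84, 4.10, 3.89, 9.15 and 5.84 RPKM across the controls, against 6.45, 6.24, 9.61, 7.62 and 7.39 in ELS. Only control replicate 4 lay within the ELS range. The log2 fold change was 0.54 ± 0.23 with it and 0.75 without it (limma adjusted p = 0.231 and 0.0805, 0.0213 to 0.409 over the alternatives). Robo3 overlaps Robo4 in RefSeq, and whether reads were assigned by strand was not given in the sources used here, so reads of that neighbour cannot be told apart from its own. Robo1 and Robo2, the main Slit receptors of the forebrain, had log2 fold changes of 0.02 ± 0.10 and 0.09 ± 0.17, or 0.09 and -0.08 without control replicate 4. Robo2 was lowest in control replicate 4, at 9.06 RPKM against 13.6 to 18.0 elsewhere.

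Levels were also summed over each family, so that abundant genes weigh most. The EphB sum was 31.7 to 55.4 RPKM in controls and 58.4 to 66.9 in ELS, without overlap, and most of it was Ephb6. The A-type ephrin sum was 26.6 to 30.9 RPKM in controls and 31.2 to 34.3 in ELS, and the Robo sum 27.3 to 29.4 and 30.0 to 33.8, also without overlap. The B-type ephrin sum was the only one of the 16 families whose ELS values all lay below the controls, at 32.7 to 36.8 against 37.1 to 49.99 RPKM. These sums were described and not tested, and no share over sums of other genes was computed beside them. Members of a family did not all go with its sum: Efna1 and Efna2 had lower ELS means (log2 fold changes -0.28 and -0.37). In control replicate 4 low and high members were added together. Efna5 was at 1.21 RPKM there and Efna3 at 22.4, its highest, while Robo2 was at its lowest, 9.06, and Robo3 at 9.15, its highest among controls.

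Ligand and receptor totals gave no separation. All 36 ligands summed to 327 ± 22.6 RPKM in controls and 333 ± 11.7 in ELS, and all 31 receptors to 323 ± 49.8 and 316 ± 7.38. The ligand to receptor ratio was 0.881 to 1.089 in controls, the low value being control replicate 4, and 1.029 to 1.14 in ELS. The ratio of ephrins to Eph receptors was 0.488 to 0.616 in controls and 0.456 to 0.509 in ELS, and without control replicate 4 the controls began at 0.527, above every ELS library. Slit to Robo ratios overlapped even then, at 1.202 to 1.38 and 1.34 to 1.47, as did netrin to Unc5 ratios, at 0.206 to 0.2999 and 0.225 to 0.272. Semaphorins summed to 173.6 to 207.1 RPKM in controls and 190.9 to 218.2 in ELS, and plexins to 99.3 to 113 and 93.4 to 99.4.

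**Figure D5:**
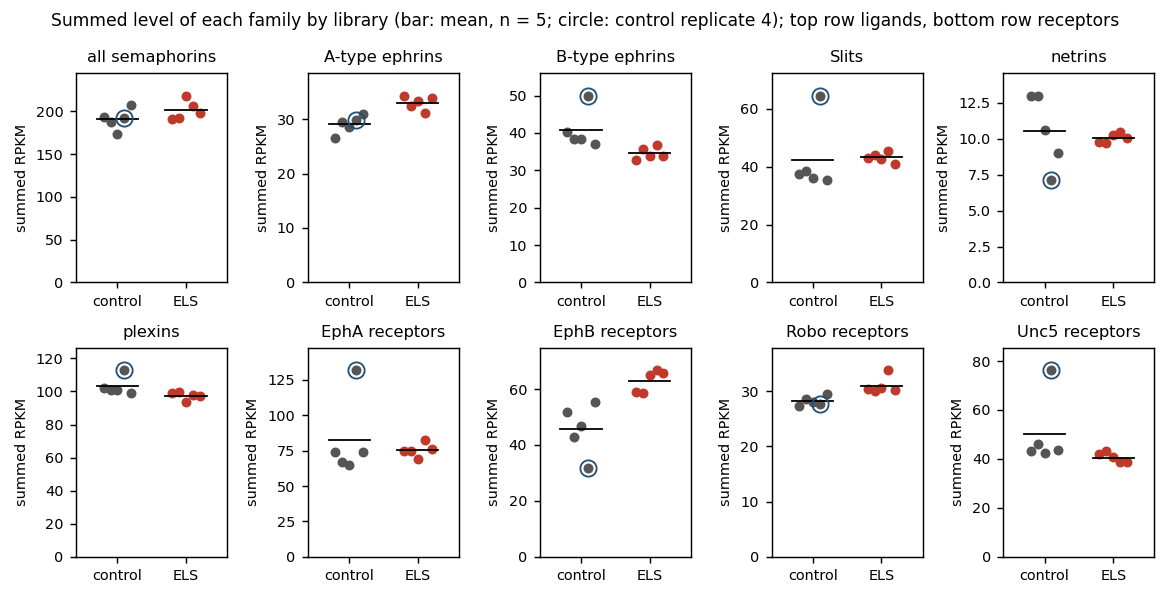
Summed RPKM of each family in each library, with the group mean (bar, n = 5) and control replicate 4 circled; ligand families are above and receptor families below. The EphB sums of ELS (58.4 to 66.9 RPKM) lie above, and the B-type ephrin sums (32.7 to 36.8) below, every control.

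The spread between libraries was itself uneven. The median coefficient of variation (SD as a share of the mean) over the 66 genes was 17.9% in controls and 8.49% in ELS, beside 11.5% and 8.33% over all genes tested. Without control replicate 4 the guidance genes' control value was 10.8%, and that of all genes 8.79%. The least even gene in ELS was Unc5d, at 65.2%. Without ELS replicate 2 the highest value among the guidance genes was that of Epha8, at 37.7%.

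The partners and effectors downstream were followed as a separate list of 70 measured genes, 69 of them tested: co-receptors, adhesion partners, adaptors and cytoskeletal effectors. None passed the adjusted threshold. At an unadjusted p under 0.05, 13 had a higher mean in ELS and 5 a lower one, against the 10.1% and 10.3% of all genes given above, and the list's median log2 fold change was 0.01. L1cam, an adhesion molecule that forms a complex with neuropilin-1, had 33.0 ± 3.28 and 39.2 ± 2.03 RPKM (log2 fold change 0.25 ± 0.07, limma adjusted p = 0.133), with every ELS library above every control. Dpysl4, a collapsin response mediator, and Mical2, an actin-oxidising enzyme of a family that binds plexins, had log2 fold changes of 0.22 ± 0.07 and 0.29 ± 0.09 (limma adjusted p = 0.141 and 0.148).

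Among the lower genes of that list, Pak3, Rock1, Nrcam, Chl1 and Enah, like Dcc above, shared the layout of Unc5d. ELS replicate 2 lay beside the controls, and the other ELS libraries lay below every control. Not every lower gene of the list had this layout. Pak3, a kinase activated by Rac and Cdc42, was at 10.5 RPKM in ELS replicate 2, 0.837 to 4.63 in the other ELS libraries and 6.27 to 11.3 in controls, a log2 fold change of -1.68 ± 0.54 (limma adjusted p = 0.151). Rock1, a kinase that regulates actomyosin contraction, was at 21.8 RPKM in ELS replicate 2, 14.4 to 16.5 in the other ELS libraries and 18.5 to 21.0 in controls (log2 fold change -0.29 ± 0.10, limma adjusted p = 0.171). Without ELS replicate 2 both passed, at limma adjusted p = 0.0293 for Pak3 and 0.0171 for Rock1, with ranges over the alternatives of 0.0276 to 0.314 and 0.00929 to 0.337. Neo1, the relative of Dcc, had 14.6 ± 1.27 and 13.6 ± 0.974 RPKM and did not pass.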

How the data were processed

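Messenger RNA was sequenced from 5 control and 5 ELS prefrontal cortex samples with a strand-specific mRNA library kit, per the labels' protocols. The authors deposited 1 table of RPKM values per gene and library. STAR, featureCounts and the rat build rn6 are named per the submitters' processing notes, while their settings, including the use of strand, were not given in the sources used here. Library totals, recovered from the RPKM steps, were 18838898 to 22311136 reads. Whole reads were recovered, within 0.002 reads, for all 16015 genes above 0. The counting depth was thus known: guidance genes carried from 8 (Ntn5) to 6843 (Epha4) reads a library. No column of another sample was used.

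Values were taken as log2(RPKM + 0.1), which understates changes of low genes, for the 14642 genes with at least 0.5 RPKM in 5 libraries. They were compared with limma 3.58.1 in R 4.3.3, as a two-sided test whose moderation was robust and followed the mean-variance trend. The Benjamini-Hochberg method adjusted p over all genes, with a threshold of 0.05. Intervals are 95% intervals of that fit. The script was tested on simulated data: with 100 genes changed 1.5-fold and 100 changed 2-fold among 14509 in the ELS against control layout, 77% and 94% were recovered. The changed genes were drawn above a minimum mean read count, and the spread of the most variable genes was capped. No simulated library departed as control replicate 4 did. These shares thus check the script and do not give the power for the guidance genes. Sums, medians and counts over families are descriptions.

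The genes, lists and alternatives were chosen with earlier results of these data known. Full values were given for genes with an unadjusted p under 0.05, with groups that did not overlap, with the largest fold change or the 2 highest levels of their family, or with a library set apart by Dixon's ratio. Of the downstream list, the 3 of lowest p in each direction and Dcc, Neo1, Lrrc4c and Lrrc4 were given with values. Nrcam, Chl1 and Enah were named for their layout only. Other guidance genes were named after their values were seen. Alternatives were the pseudocount, the filter, the scaling, limma-voom on recovered reads with and without quality weights, the replicate block, leaving out each library, and leaving out control replicate 4 with ELS replicate 2. Promoter windows are from RefSeq GRCr8 and were not placed on rn6. In RefSeq, 36 of the 67 genes overlap another gene.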

Additional observations from a re-analysis of the deposited data

Results flagged for a closer look

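In 17 cases 1 library of a group of 5 was set apart from the other 4 by Dixon's ratio at the 95% level, which chance gives in about 1 of 20 groups. Control replicate 4 accounts for 14 of them. It was high for Epha6 (9.56 RPKM), Epha7 (28.3), Epha8 (24.8), Efnb3 (42.1), Nrp1 (19.1), Nrp2 (10.6), Plxnb1 (18.9), Plxnb3 (12.9), Sema5a (19.8), Slit1 (46.0), Slit3 (12.02) and Unc5a (56.5). It was low for Efnb2 (5.09 RPKM) and Sema3f (0.361). These 14 are 21.2% of the 66 guidance genes, beside 8.86% of all genes tested. In the ELS group, replicate 3 was high for Sema4a (13.5 RPKM) and Sema6b (29.2), and replicate 4 for Efnb2 (16.1). These are 3.03% and 1.52% of the 66 guidance genes, beside 1.18% and 1.13% of all genes tested. ELS replicates 1, 2 and 5 were set apart in 0%, beside 1.02%, 2.41% and 0.69% of all genes.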

How the results depend on the processing

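Of all 66 tested guidance genes, 47 kept their direction in every one of the 20 alternatives, as did 35 of the 45 given in full. Without control replicate 4, 6 of those 45 and 6 of the other 21 changed direction. Called guidance genes numbered 0 with all libraries (0% of all genes), 8 with quality weights (5.86%) and 11 without control replicate 4 and ELS replicate 2 (7.62%). When 1 library was left out they numbered 0 to 2 (0% to 3.03% of all genes), the 2 coming without ELS replicate 2. Higher genes at an unadjusted p under 0.05 numbered 12 with weights (10.7% of all genes) and 12 without both libraries (13.9%). When 1 library was left out they numbered 3 to 12 (6.78% to 11.4% of all genes): 12 without control replicate 4, and 3 without control replicate 3 or without ELS replicate 3. Lower ones numbered 12 with all libraries (10.3% of all genes) and 8 to 13 when 1 library was left out (7.78% to 11.2%). With weights they outnumbered the higher genes (14.8% of all genes were lower). They numbered 7 with the replicate block (9.61% of all genes), in which 0 were called. Samples of the same number did not deviate together (correlations -0.0817 to 0.0658), so these values gave no sign of pairing by number. Only number 3 matched itself best. A litter or batch shared by samples of the same number was not tested.

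For the downstream list, 4 genes were called with weights (5.86% of all genes) and 8 without both libraries (7.62%). With 1 library left out 0 to 2 were called (0% to 3.03% of all genes). Of its 69 tested genes, those higher at an unadjusted p under 0.05 numbered 20 without both (13.9% of all genes) and 6 to 17 with 1 left out (6.78% to 11.4%). Lower ones numbered 8 with upper quartile scaling (12.7% of all genes), 10 with weights (14.8%), 9 without both (12%) and 4 to 8 with 1 left out (7.78% to 11.2%).

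Median log2 fold changes with weights and without both libraries were -0.096 and -0.040 for class 3 semaphorins (-0.0058 to 0.23 with 1 library left out) and -0.127 and -0.122 for plexins (-0.097 to -0.041). With weights they were -0.11 for ligands and -0.14 for ephrins. Log2 fold changes changed sign, with weights and without both, for Epha7 (0.0021 and 0.035), Ephb1 (0.035 and 0.046), Nrp1 (0.10 and 0.20), Plxnb1 (0.0031 and 0.039) and Robo2 (-0.051 and -0.085), without both for Unc5a (0.053) and with upper quartile scaling for Robo1 (-0.0069). With 1 library left out they ranged from -0.20 to 0.061 for Epha7, -0.063 to 0.020 for Ephb1, -0.41 to 0.19 for Nrp1, -0.19 to 0.12 for Ntn4, -0.11 to 0.016 for Plxnb1, -0.062 to 0.088 for Robo1 (0.0897 without both), -0.077 to 0.17 for Robo2, -0.107 to 0.043 for Sema5b, -0.00021 to 0.24 for Slit3 and -0.20 to 0.042 for Unc5a. The cause was not tested.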
